A study of Mus musculus with 2 samples.

Results

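Described here are 8 genes of iron handling and metal binding in leukocytes of mouse adipose tissue, under chow and under a ketogenic diet. They were taken by symbol from the 28692 genes of the matrices, of which 18298 had at least 1 read in a clustered cell. Fth1 and Ftl1 encode the heavy and light chains of ferritin, the cage that stores iron inside cells. Slc40a1 encodes ferroportin, the membrane channel that exports iron. Hmox1 encodes haem oxygenase, which opens the haem ring and frees its iron. Trf encodes transferrin, the iron carrier of plasma, and Tfrc the receptor through which cells take it up. Mt1 and Mt2 encode metallothioneins, small cysteine-rich proteins that bind zinc and copper. All 8 symbols were found, and 7 of the genes could be measured.

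Single-cell RNA sequencing had been carried out with a 10x Genomics protocol on CD45+ leukocytes from adipose tissue of wild-type (wt) C57BL/6 mice. Control animals ate chow, and the others ate a ketogenic diet (KD), very low in carbohydrate, for 1 week. Intravenous labelling had been used to find the cells resident in the tissue rather than in blood vessels. The titles call the animals adult. Age in weeks, sex and the number of mice behind each library are not given in the labels. Each diet had 1 library, so no difference below has a replicate check and no p-value was computed. Values are unique molecular identifiers (UMIs), each 1 captured transcript, summed over the cells of a cluster, divided by all UMIs of those cells and scaled (CPM). Ratios are KD over chow, with 0.5 added to each count on the log2 scale. Intervals are 95% exact intervals that cover counting error only.

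Macrophages of many tissues recycle iron: they degrade haem from dying red cells, store the iron in ferritin and release it through ferroportin. Ferritin and ferroportin messages carry an iron-responsive element (IRE) near their 5′ end, where iron regulatory proteins block translation when iron is scarce, so for these genes the protein can move without the message. Metallothionein genes are switched on by the zinc-sensing factor MTF1 and by glucocorticoids and stress. In adipose tissue, iron-loaded macrophages have been described as a store that buffers adipocytes.

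The chow library held 4458 cells in the 13 clusters deposited by the authors and the ketogenic one 5559, with medians of 3469 and 3461.5 UMIs per cell before clustering. The CD45 gene Ptprc gave a UMI in 82.6% and 82.3% of the clustered cells. Markers named cluster 3 macrophage-like, 5 cDC2-like, 6 cDC1-like and 12 mature DC-like (dendritic cells), 0 ILC2-like (group 2 innate lymphoid cells) and 1 NK-like. Cluster 2 was T-like, 7 Treg-like (regulatory T), 11 γδ T-like, 9 B and plasma-like and 10 cycling-like. Clusters 4 and 8 stayed unnamed. CD3 and Klra genes led cluster 4, and Retnla, Fcrls and Lyz1 led cluster 8. The macrophage-like cluster held 859 chow and 145 ketogenic cells and cluster 8 held 362 and 47, so values per library over all cells move with cell numbers. The libraries shared 41 barcodes.

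The IRE letters are shown because they are the part of the ferritin and ferroportin messages through which iron acts on translation. The Tfrc message carries such elements near its 3′ end, which was not searched. The pattern, a C, any 5 bases and then the loop CAGTGN, searched on the transcript strand in the first 250 bases, was in 10.1% of 58447 coding transcripts of GENCODE M21. Each of the 3 transcripts held 1 match, printed as 30 bases in DNA letters with the 6 bases of the loop in capitals.
Fth1-201, bases 85 to 114: gtttcctgcttcaaCAGTGCttgaacggaa
Ftl1-201, bases 76 to 105: gtgtcttgcttcaaCAGTGTttgaacggaa
Slc40a1-201, bases 88 to 117: tccaacttcagctaCAGTGTtagctaagtt
Translation was not measured here.

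The upstream sequence of Mt1 and Mt2 is shown because these genes, which lie side by side on chromosome 8 with starts 6418 bases apart, gave 14 of the 15 differences of at least 2-fold described below. The 250 bases before the start given by RefSeq (build GRCm38.p6, plus strand) follow, with the core of the metal response element, the letters bound by MTF1, in capitals.
Mt1, chr8:94178839-94179088: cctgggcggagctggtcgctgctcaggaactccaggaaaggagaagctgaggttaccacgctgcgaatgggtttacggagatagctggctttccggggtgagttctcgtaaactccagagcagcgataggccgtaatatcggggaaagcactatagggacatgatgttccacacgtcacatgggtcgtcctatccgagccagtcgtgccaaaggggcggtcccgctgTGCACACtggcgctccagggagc
Mt2, chr8:94172368-94172617: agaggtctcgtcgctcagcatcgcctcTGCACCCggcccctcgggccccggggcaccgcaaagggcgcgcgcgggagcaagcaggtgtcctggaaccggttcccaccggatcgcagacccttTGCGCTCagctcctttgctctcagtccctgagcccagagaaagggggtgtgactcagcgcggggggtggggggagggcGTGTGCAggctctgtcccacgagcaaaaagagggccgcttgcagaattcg
The letters searched were TGCACNC and TGCGCNC on both strands, and no matches overlapped. The Mt1 window held 1 match and the Mt2 window 3, the one nearest the start on the minus strand. Of 32851 promoter windows of the same length, 21.4% held at least 1 match and 1.26% held 3 or more. The windows hang on the start chosen by RefSeq. Whether it is the start most used in these cells was not tested, and the letters downstream of it were not searched, so the counts of matches show no difference between the promoters of the genes. Among the members, 5 matched the promoter table (Fth1, Ftl1, Tfrc, Mt1 and Mt2).

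Of the 104 pairs of a member and a cluster, 66 reached 50 UMIs over both libraries. None of them was at least 2-fold higher under KD, beside 3.32% of all gene and cluster pairs. At least 2-fold lower were 15, beside 2.32% of all pairs. Of these 15, 14 belonged to Mt1 or Mt2, out of 22 pairs of those genes, and the other was Tfrc in the Treg-like cluster. In clusters 3, 5, 6, 8 and 12, the macrophage-like and dendritic clusters and cluster 8, 4 of 28 pairs were lower beside 3.09% of all pairs there, and in the other 8 clusters 11 of 38 were, beside 1.82%. The plots of levels and of ratios show this split between the iron genes and the metallothioneins.

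**Figure D1:**
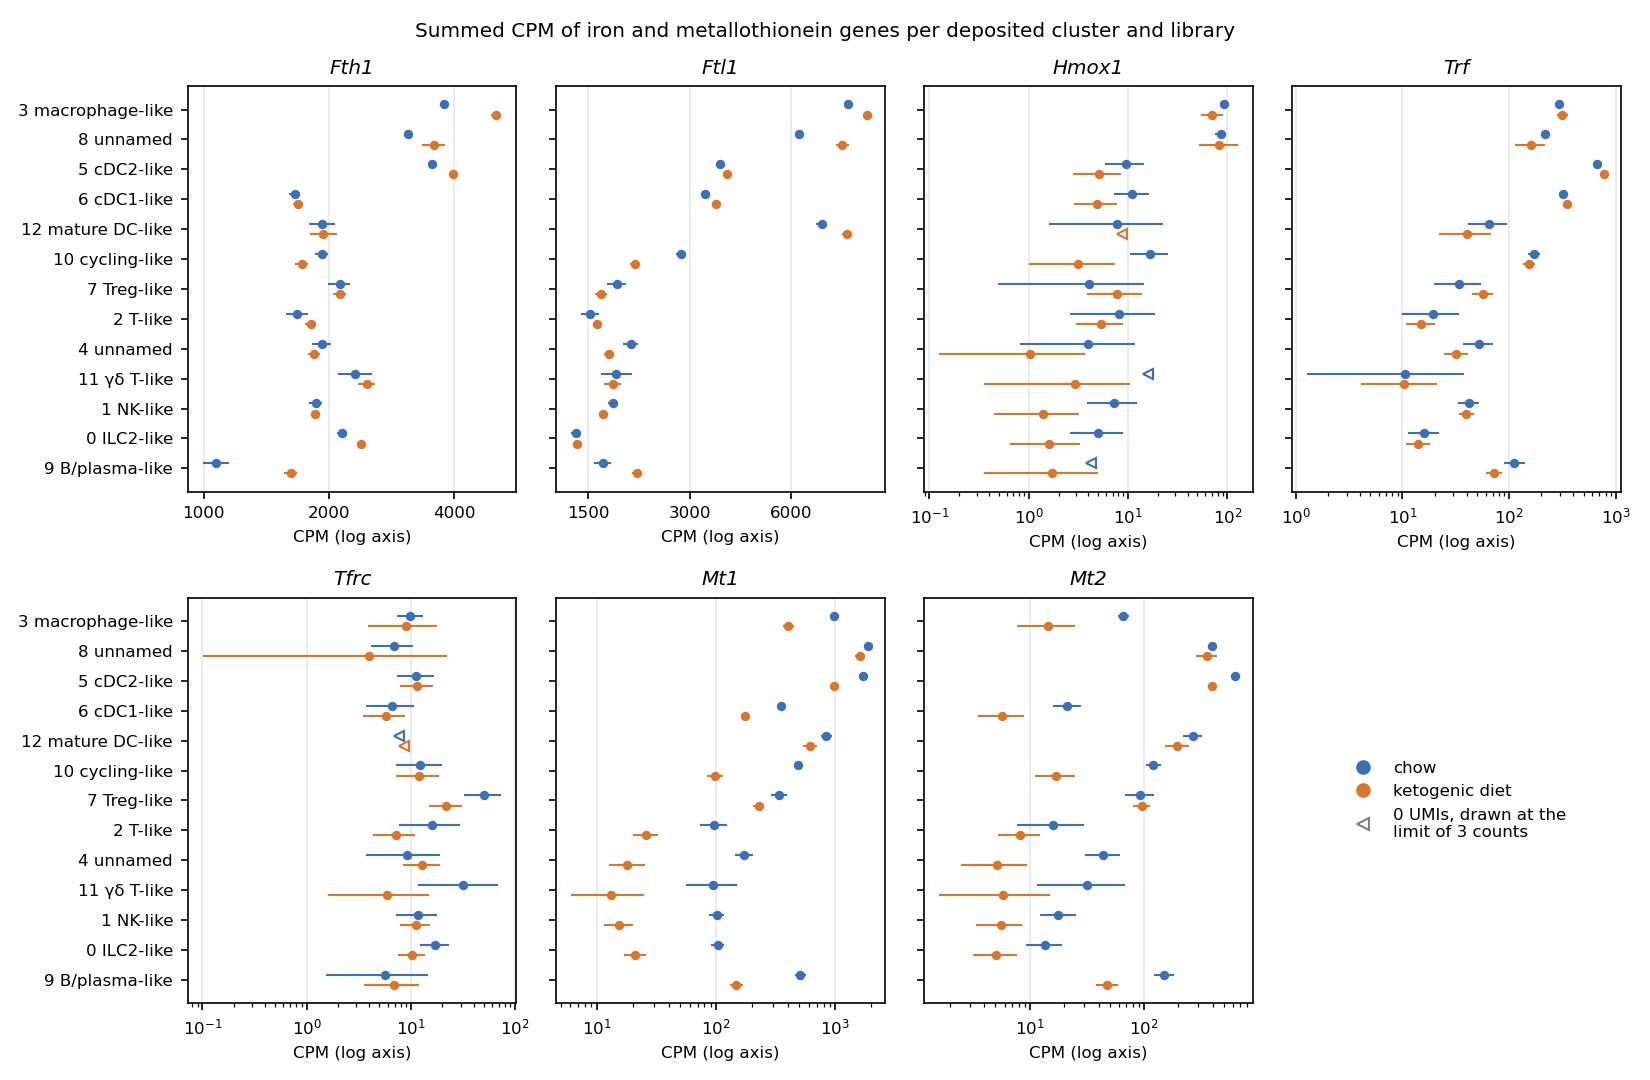
Summed CPM (log axes) of 7 members in the 13 deposited clusters, chow in blue and ketogenic diet in orange, with bars for the 95% exact Poisson interval and open triangles at the limit of 3 counts where no UMI was seen. Fth1 and Ftl1 peaked in macrophage-like cluster 3 and Trf and Mt2 in cDC2-like cluster 5 under both diets, Hmox1 was confined largely to clusters 3 and 8, and the orange Mt1 points lie left of the blue ones in each cluster.

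Fth1 (chromosome 19, 9980598 to 9985098) was highest in the macrophage-like cluster in both libraries. Its level there was 3785 CPM under chow and 5035 under KD, a 1.33-fold higher value (interval 1.29 to 1.37, log2 0.41). The cDC2-like cluster followed with 3524 and 3959 CPM (log2 0.17), and cluster 8 with 3088 and 3565 (log2 0.21). The other 10 clusters lay between 1069 and 2307 CPM under chow and between 1617 and 2461 under KD. In the NK-like and Treg-like clusters the libraries gave nearly the same Fth1 level, 1856 and 1855 CPM and 2120 and 2119 CPM. Of all genes tested in the macrophage-like cluster, the middle 90% of log2 ratios ran from -0.87 to 0.87, so the Fth1 difference was well inside the spread of genes although outside its counting interval.

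The lowest chow level and the largest ratio of Fth1 were those of the B and plasma-like cluster, 1069 CPM under chow and 1617 under KD (log2 0.60). All genes there had a median log2 ratio of 0.50. When its cells were split at an immunoglobulin share of 10% of UMIs, a split chosen after seeing the data, the Fth1 log2 ratio was -0.01 in the immunoglobulin-rich cells and -0.08 in the others. Immunoglobulin-rich cells numbered 35 of 82 under chow and 48 of 245 under KD.

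Ftl1 (chromosome 7, 45457944 to 45459884) was highest in the macrophage-like cluster too, followed by the mature DC-like cluster and cluster 8. The macrophage-like level was 8877 CPM under chow and 10070 under KD (log2 0.18). The mature DC-like cluster gave 7397 and 8811 CPM (log2 0.25). Cluster 8 gave 6319 and 8534 CPM, the largest ratio of Ftl1 (1.35-fold, interval 1.29 to 1.41, log2 0.43). The conventional dendritic clusters held 3696 and 3867 CPM (cDC2-like) and 3325 and 3605 (cDC1-like), and the ILC2-like cluster was lowest with 1376 and 1392. The mature DC-like cells, a state in which dendritic cells migrate towards lymph nodes, thus stood high for the light chain but in the middle for the heavy chain, at 1926 and 1940 CPM of Fth1.

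The lowest Ftl1 ratio was in the cycling-like cluster, 2824 CPM under chow and 2069 under KD (log2 -0.45). That cluster mixes dividing cells of several types. Among its cells with an MHC class II share of at least 1% of UMIs, 102 under chow and 61 under KD, the Ftl1 log2 ratio was -0.16, and among the others, 40 and 93 cells, it was 0.22. The pooled value lay below the values of both parts. Class II cells held 3209 CPM of Ftl1 under chow and 2862 under KD, and the others 1061 and 1239. The class II cells were more numerous under chow.

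In the macrophage-like cluster the ferritin chains differed between cells with and without complement C1q, a product of resident macrophages. C1q-high cells, with at least 3 UMIs of the C1q genes, numbered 299 under chow and 32 under KD, and 48 and 8 cells lay within 1 UMI of that limit. Their Ftl1 level was 10022 CPM under chow and 9544 under KD (log2 -0.07), while C1q-low cells held 8187 and 10266 (log2 0.33). Fth1 was higher under KD in both, with log2 ratios of 0.25 and 0.50. Chow and ketogenic macrophage-like cells were thus further apart in ferritin among the C1q-low cells.

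Part of the Ftl1 signal lay on a near-identical copy. Gm10116 (chromosome 13, 74399694 to 74407346), named Ftl1-ps1 in GENCODE M21, matched the Ftl1-201 transcript at 99.6% of 910 aligned bases, with 4 mismatches, 1 of them in the last 200 bases. Over all clustered cells it took 12.03% of the summed Ftl1 and Gm10116 UMIs under chow and 6.88% under KD. The chow share ran from 9.71% to 13.2% over the clusters and the ketogenic share from 5.47% to 7.49%. The intervals of the libraries did not overlap in 13 of 13 clusters. Gm10116 by itself was lower under KD in 13 of 13 clusters, with log2 ratios from -1.46 to -0.32, whether the cells were macrophage-like, dendritic or lymphoid. How reads were divided between the copies is not given in the sources used here, so the Ftl1 values carry that uncertainty. With both added, the log2 ratio was 0.09 in cluster 3, 0.36 in cluster 8, 0.14 in cluster 12, -0.02 in cluster 5 and -0.54 in cluster 10. No UMI of the 6 Fthl17 genes, other ferritin heavy chain copies, was seen.

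**Figure D2:**
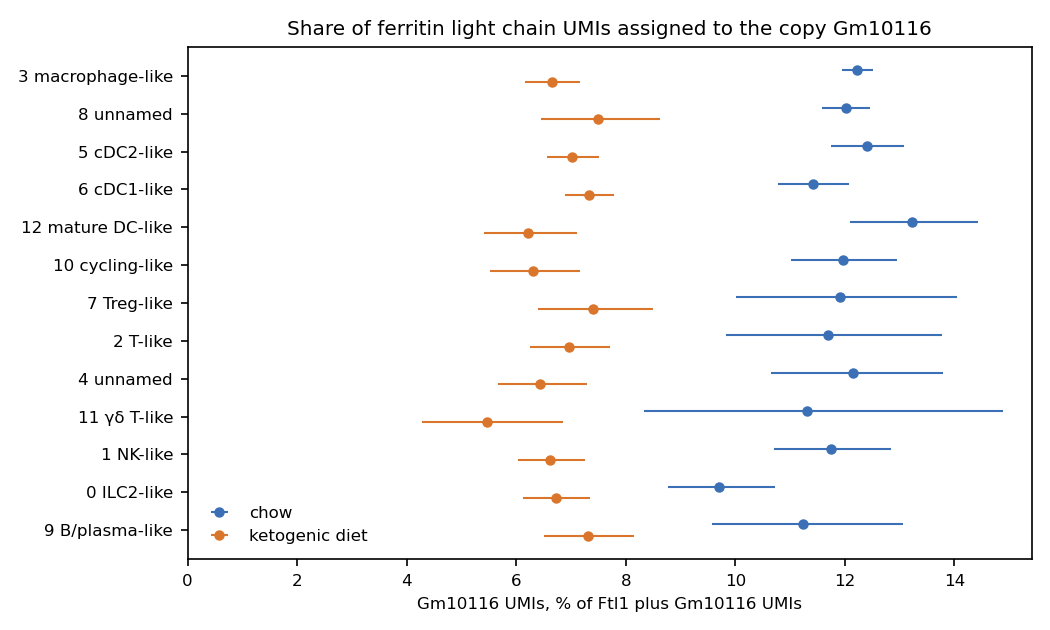
Gm10116 UMIs as a percent of the Ftl1 and Gm10116 UMIs in each cluster, chow in blue and ketogenic diet in orange, with 95% exact binomial intervals. The chow values lie between 9.71% and 13.2% and the ketogenic ones between 5.47% and 7.49%, with no overlap in any cluster.

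Slc40a1 (chromosome 1, 45908068 to 45926523) was close to undetected. The chow library held 7 UMIs in 5 cells, 4 of them in the macrophage-like cluster and 1 each in clusters 0, 8 and 10. The ketogenic library held none, which allows up to 0.12 CPM over its clustered cells. At 0.33 CPM over all chow cells, the exporter could not be compared between diets or cell types.

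Hmox1 (chromosome 8, 75093621 to 75100589) was found mainly in the macrophage-like cluster and cluster 8, which held 86.9% of its 831 chow UMIs and 50.9% of its 165 ketogenic UMIs. Under chow its level was 92.9 CPM in cluster 3 and 85.9 in cluster 8, and under KD 70.5 and 83.4. The ratio was 0.76-fold in cluster 3 (interval 0.57 to 0.99, log2 -0.39) and 0.97-fold in cluster 8 (interval 0.59 to 1.52, log2 -0.01). Elsewhere the level ran from 0 to 16.7 CPM under chow and from 0 to 7.78 under KD.

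A Hmox1 UMI was found in 33.5% of chow and 26.9% of ketogenic macrophage-like cells. NK-like cells, which should lack the enzyme or hold little of it, gave 1.66% and 0.47%. The median depths were 5543 and 5589 UMIs in the first and 2296.5 and 3147 in the second cluster. After every cell was thinned to 1000 UMIs, the macrophage-like shares were 8.27% (interval 6.51 to 10.3) and 6.21% (2.88 to 11.5). At this depth the diets were not told apart in the share of Hmox1-positive macrophage-like cells. C1q-high chow cells held 114 CPM and C1q-low ones 80.5, and under KD they held 86.5 and 64.6. The ketogenic C1q-high value rested on 21 UMIs, 47.6% of them in 1 cell, and without the cell with most UMIs in each library the log2 ratio there went from -0.36 to -1.12. Erythroid genes, which would mark engulfed or attached red cells, summed to 5.32 and 5.60 CPM in the macrophage-like cluster, with Alas2 at 0.

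Trf (chromosome 9, 103204001 to 103230444) was highest in cDC2-like cells. Clusters 5, 6 and 12 held 46.4% of its chow UMIs and clusters 3 and 8 held 43.3%, and under KD they held 75.6% and 7.18%. The cDC2-like cluster held 664 CPM under chow and 774 under KD (1.17-fold, interval 1.09 to 1.25, log2 0.22). Trf was among the 10 genes that led that cluster. The clusters were made from the same cells and genes, so its height there is only a description. The cDC1-like cluster followed with 317 and 349 CPM and the macrophage-like cluster with 292 and 314, and at these levels the chow intervals of the latter pair overlapped (295 to 340 and 277 to 307). Cluster 8 gave 215 and 159 CPM (log2 -0.42) and the cycling-like cluster 172 and 153.

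Mature DC-like cells held little Trf, 64.2 CPM under chow and 40.5 under KD, from 25 and 14 UMIs. In the lymphoid clusters 0, 1, 2, 4, 7 and 11 no library exceeded 56.6 CPM. The B and plasma-like cluster 9 held more, 112 CPM under chow and 72.3 under KD (log2 -0.63). After thinning, 40.1% and 41.1% of cDC2-like cells had a Trf UMI against 3.87% and 3.86% of NK-like cells, with intervals of 34.9 to 45.5 and 35.9 to 46.4 for the cDC2-like shares. Trf was not 2-fold different in any of its 11 pairs, although some alternatives given below took clusters 2, 7 and 9 past 2-fold. The log2 ratios of the 11 pairs ran from -0.70 in cluster 4 to 0.70 in the Treg-like cluster. Both ends rested on few cells. In cluster 4, 1 cell held 33.3% of 39 chow UMIs, and the ratio was -0.24 without the cell with most UMIs in each library and 0.03 as a mean over cells. In the Treg-like cluster 1 cell held 41.2% of 17 chow UMIs, and the ratio without such cells was 1.17.

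Tfrc (chromosome 16, 32608920 to 32632794) was sparse, with 242 chow and 257 ketogenic UMIs over all clusters. Its highest chow level was in the Treg-like cluster, 50.2 CPM, where KD gave 21.9 CPM, 2.29-fold lower (interval 1.30 to 4.01, log2 -1.20). The call was among the 1.32% of genes at least 2-fold lower in that cluster. A single cell held 24.0% of the 25 chow UMIs, and without the cell with most UMIs in each library the log2 ratio was -0.90, short of 2-fold. Foxp3-positive cells of the cluster, 48 under chow and 100 under KD, held 106 and 29.6 CPM from 12 UMIs each, with 50% of the chow UMIs in 1 cell, and the Foxp3-negative ones 33.7 and 18.8. Both parts were below the minimum of 50 UMIs. The ILC2-like cluster had 17.2 and 10.3 CPM (log2 -0.74), the macrophage-like cluster 9.84 and 8.96, and the cDC2-like cluster 11.3 and 11.6. In the mature DC-like cluster no UMI was seen in either library, which allows up to 7.70 and 8.67 CPM.

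Mt1 (chromosome 8, 94179082 to 94180327) was lower under KD in each of the 12 clusters that reached the minimum, with an interval below 1 in 12 of 12 and a ratio at least 2-fold lower in 8. In the macrophage-like cluster it was 970 CPM under chow and 404 under KD, 2.40-fold lower (interval 2.16 to 2.68, log2 -1.26), where 3.76% of all genes were at least 2-fold lower. The cDC1-like cluster went from 352 to 175 CPM (log2 -1.003, at the limit, and -0.81 with 10% of UMIs subtracted as free RNA, which left 7 of the 8 calls) and the cDC2-like cluster from 1713 to 977 (log2 -0.81). The mature DC-like cluster had 842 and 613 CPM (log2 -0.46). Cluster 8, with the highest level, had 1895 and 1616 CPM (1.17-fold lower, interval 1.06 to 1.30, log2 -0.23), the smallest of the 12 differences. Mt1 was thus lower by more in the macrophage-like cluster than in cluster 8, and these intervals did not overlap.

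In clusters 0, 1, 2 and 4, which are lymphoid, Mt1 was less abundant than in the macrophage-like and dendritic clusters, and its ratios were larger. Levels under chow were 103 CPM in ILC2-like, 101 in NK-like, 96.5 in T-like and 171 in cluster 4 cells. Under KD the same clusters held 20.9, 15.3, 25.8 and 18.0 CPM, with log2 ratios of -2.30, -2.72, -1.90 and -3.23. A single chow cell held 45.0% of the Mt1 UMIs of cluster 4, and without the cell with most UMIs in each library its log2 ratio was -2.48. The γδ T-like cluster, with 18 chow and 9 ketogenic UMIs, stayed below the minimum at 94.8 and 13.2 CPM. The Treg-like cluster stood apart from these, with 337 and 228 CPM (log2 -0.56, and -0.19 without the cell with most UMIs in each library).

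The cycling-like and the B and plasma-like clusters were mixed, and each was split by a marker. The cycling-like cluster had 490 and 98.5 CPM of Mt1 (log2 -2.31). Its class II cells gave a log2 ratio of -2.20, and its other cells, with 113 and 71.9 CPM, one of -0.67 (ratio interval 0.40 to 1.04). The B and plasma-like cluster had 509 and 148 CPM (log2 -1.78). The ratio was -1.61 in its immunoglobulin-rich cells and -1.29 in the others, where 1 cell held 71.1% of 45 chow UMIs. Without the cell with most UMIs in each library the latter was 0.03.

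Mt2 (chromosome 8, 94172664 to 94173568) was lower in 9 of its 10 clusters, by at least 2-fold in 6. It led the cDC2-like cluster, of whose 10 leading genes it was one, with 629 CPM under chow and 390 under KD (log2 -0.69). In the macrophage-like cluster it was 66.0 and 14.6 CPM, 335 and 13 UMIs (4.53-fold lower, interval 2.61 to 8.60, log2 -2.13). Cluster 8 held 391 and 353 CPM (log2 -0.14) and the mature DC-like cluster 267 and 197 (log2 -0.44), and both intervals included 1. The cDC1-like cluster went from 21.3 to 5.74 CPM (log2 -1.87), the cycling-like one from 121 to 16.9 (log2 -2.82) and the B and plasma-like one from 150 to 47.8 (log2 -1.65). ILC2-like cells had 32 and 22 UMIs (log2 -1.40) and NK-like cells 32 and 20 (log2 -1.66). In the class II cells of the cycling-like cluster 1 cell held 76.5% of 17 ketogenic UMIs. The macrophage lysozyme gene Lyz2 was also at least 2-fold lower in clusters 0, 1, 9 and 10, and the part of macrophage RNA in the Mt2 values was not tested. The Treg-like cluster was the exception, with 92.3 and 95.4 CPM (log2 0.04).

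**Figure D3:**
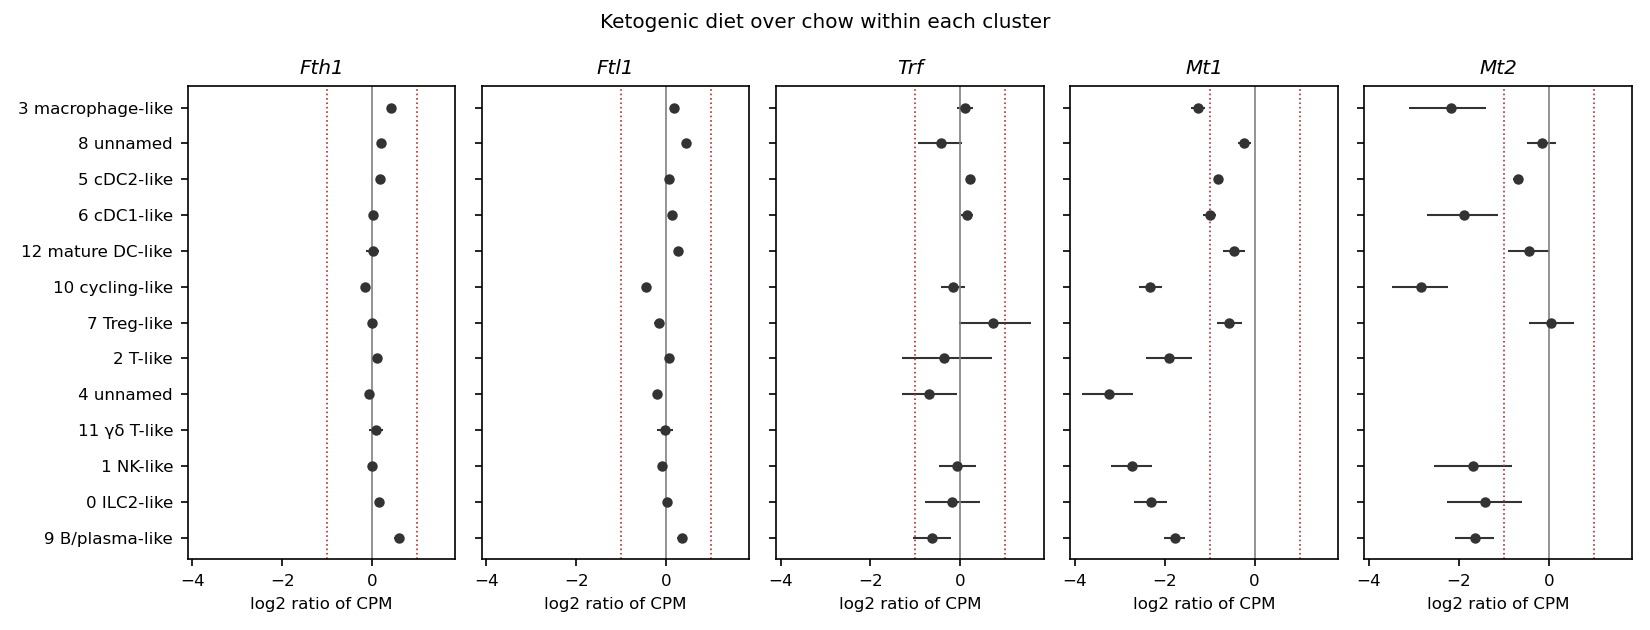
Ratios of CPM between the ketogenic diet and chow (log2 scale) of Fth1, Ftl1, Trf, Mt1 and Mt2 in clusters with at least 50 UMIs of the gene over both libraries, with 95% exact intervals for counting error and lines at 2-fold. Ferritin and Trf points lie within 2-fold in every cluster shown, while 8 of 12 Mt1 and 6 of 10 Mt2 points lie below the lower line.

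The proportion of the metallothioneins differed more between clusters than between diets. Mt2 made up 26.9% and 28.6% of the Mt1 and Mt2 UMIs in cDC2-like cells, 24.1% and 24.3% in mature DC-like cells and 17.1% and 17.9% in cluster 8. In the macrophage-like cluster its share was 6.37% and 3.48%, and in the cDC1-like cluster 5.71% and 3.17%. The intervals of the libraries overlapped in 13 of 13 clusters. Cells with a Mt2 UMI mostly had Mt1 too: 90.8% of them in chow and 96.6% in ketogenic cDC2-like cells, against 63.8% and 46.9% of the cells without Mt2, at median depths of 6579.5 and 8182 UMIs for the former and 6262.5 and 7539 for the latter.

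The message was unevenly spread. The 5% of macrophage-like cells with most Mt1 held 36.0% of its UMIs under chow and 45.7% under KD. After thinning, a Mt1 UMI was found in 38.8% (interval 35.5 to 42.1) of chow and 21.4% (15.0 to 29.0) of ketogenic macrophage-like cells, shares whose intervals did not overlap. The shares were 62.2% and 51.1% in cluster 8, whose median depth was 7938.5 UMIs under chow and 4581 under KD, 42.2% and 31.3% in cDC2-like and 23.1% and 13.8% in cDC1-like cells. NK-like cells gave 9.25% and 1.13%. Without thinning, the macrophage-like shares were 75.8% and 51.7%.

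Within the macrophage-like cluster the Mt1 difference was larger in C1q-high cells, 1307 CPM under chow and 321 under KD (log2 -2.02), than in C1q-low cells, 767 and 435 (log2 -0.81). Mt2 did not follow that order, with log2 ratios of -1.70 and -2.24 from 5 and 8 ketogenic UMIs. Neutrophil markers summed to 301 CPM in the chow and 58.2 in the ketogenic macrophage-like cells, with 5 and 4 of 5 genes detected and Retnlg at 0 in the second. Their part in the result was not tested.

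The Treg-like cluster divided in the opposite way. Foxp3-negative cells had 335 CPM of Mt1 under chow and 109 under KD (log2 -1.62), with 51.9% of the chow UMIs in 1 cell, and 85.6 and 38.6 CPM of Mt2 (log2 -1.15). Without the cell with most UMIs in each library the ratios were -1.06 and -0.72, the latter short of 2-fold. Their Lyz2 level was 1529 and 158 CPM (log2 -3.28), with 53.8% of the chow UMIs in 1 cell. Foxp3-positive cells had 346 and 526 CPM (log2 0.59, ratio interval 1.08 to 2.20), and Mt2 115 and 237 (log2 0.99, interval 1.15 to 4.001). Without the cell with most UMIs in each library these were 0.39 and 0.69. The Foxp3-positive cells, 48 and 100 in number, were the only one of the cluster parts examined (splits of clusters 3, 7, 9 and 10) in which both metallothioneins were higher under KD. A single ketogenic cell of that part held 73.6% of its 182 UMIs of the macrophage lysozyme gene Lyz2. The part of mixed droplets in the result was not tested.

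Macrophage RNA outside macrophages differed between the libraries as well. Lyz2 was lower under KD by at least 2-fold in 9 clusters, from 544 to 109 CPM in ILC2-like and from 843 to 116 in NK-like cells, but not in the macrophage-like cluster (19255 and 21403). The summed level of 10 macrophage markers ran from 574 to 1066 CPM in clusters 0, 1, 2, 4 and 11 under chow and from 111 to 137 under KD, with 7 to 10 and 7 to 9 of the 10 markers detected. In the macrophage-like cluster it was 21853 and 23751. Lyz2 is 1 of the 10 markers and made up most of these sums, 843 of 952 CPM in chow and 116 of 137 in ketogenic NK-like cells. For every 100 Lyz2 UMIs, ILC2-like cells held 19.0 Mt1 UMIs under chow and 19.2 under KD, NK-like cells 12.01 and 13.2, cluster 4 17.7 and 17.9 and γδ T-like cells 19.6 and 16.4. In these 4 clusters the intervals of the libraries overlapped, and in the T-like cluster, with 16.1 and 28.2, they did not. Of the chow Mt1 UMIs of cluster 4, 45.0% lay in 1 cell. The whole libraries gave 11.8 and 15.0 Mt1 per 100 Lyz2 UMIs.

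In the other 8 clusters the intervals of this proportion were apart, in either direction. It was lower under KD in 5 of them: 5.04 and 1.89 in the macrophage-like cluster, 17.0 and 11.9 in cluster 8, 99.4 and 66.7 in cDC2-like, 21.9 and 10.4 in cDC1-like and 21.3 and 16.2 in cycling-like cells. It was higher under KD in 3, with 25.6 and 94.7 in Treg-like, 70.3 and 119 in B and plasma-like and 167 and 848 in mature DC-like cells. In those 3 clusters Lyz2 was lower under KD by more than Mt1 was, at 1317 and 241 CPM, 724 and 124 CPM, and 503 and 72.3 CPM. Lyz2 itself was 1723 and 1465 CPM in cDC2-like and 1605 and 1680 in cDC1-like cells. In these 2 clusters Mt1 was lower while Lyz2 differed little, and the part of macrophage RNA in the Mt1 values was not tested. In clusters 0, 1, 4 and 11, lower Mt1 per cell and less macrophage RNA in the droplets cannot be told apart. In clusters 2, 7, 9, 10 and 12 Lyz2 and Mt1 were both lower too, with 600 and 91.5 CPM of Lyz2 in T-like and 2302 and 608 in cycling-like cells, and the part of macrophage RNA in the Mt1 difference was not tested.

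**Figure D4:**
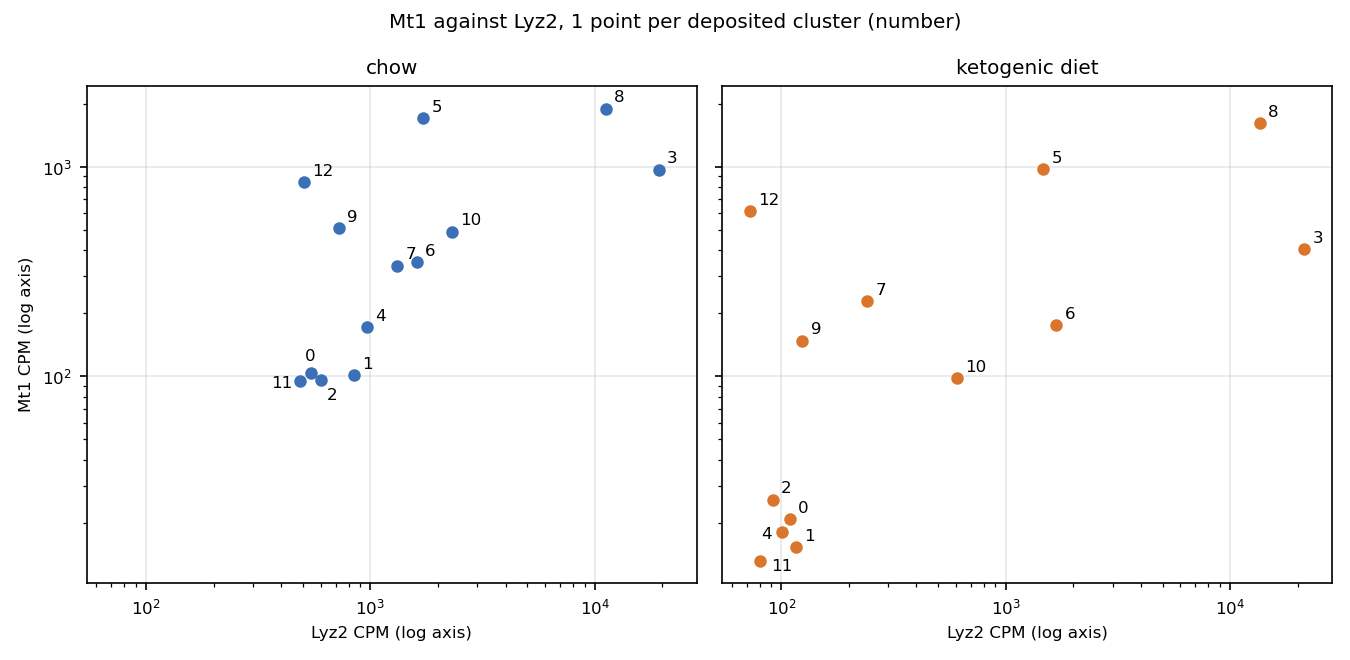
Mt1 CPM against Lyz2 CPM (log axes) of each deposited cluster, numbered, in the chow (blue) and ketogenic (orange) library. Clusters 0, 1, 2, 4, 7, 9, 10, 11 and 12 lie lower under the ketogenic diet on both axes, whereas macrophage-like cluster 3 and cDC1-like cluster 6 were lower in Mt1 at a similar Lyz2 level.

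Over all clustered cells of a library, ratios depended on how the clusters were weighted. Pooled, Mt1 was 808 CPM under chow and 205 under KD (log2 -1.98), and with each cluster weighted by its mean share of cells it was 456 and 234 (log2 -0.96). Mt2 had log2 ratios of -1.39 pooled and -0.77 weighted, and Hmox1 of -2.61 and -0.50. For ferritin and transferrin the sign turned. Ftl1 was -0.81 pooled and 0.11 weighted, Fth1 -0.22 and 0.16, and Trf -0.41 and 0.06. Tfrc was -0.19 pooled and -0.52 weighted.

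Other genes of iron and haem handling were counted from a list of 41, of which 39 were found. Over all 13 clusters 168 gene and cluster pairs reached the minimum, 5 of them at least 2-fold higher, beside 3.32% of all pairs, and 7 lower, beside 2.32%. In the macrophage-like cluster 22 genes did, and 1 was at least 2-fold higher, beside 3.27% of all genes, and 1 lower, beside 3.76%. The list's median log2 ratio was 0.12, against 0.04 for all genes tested. Hp, the haptoglobin gene whose protein binds free haemoglobin, was higher under KD, 158 against 324 CPM (log2 1.03). Steap3, which encodes an iron reductase of endosomes, had 10.2 and 3.36 CPM from 52 and 3 UMIs (log2 -1.40, ratio interval 0.07 to 1.01). Within 2-fold were Slc11a1, the phagosomal iron transporter (107 and 111 CPM), the biliverdin reductase Blvrb (74.4 and 79.5) and Bach1, the haem-sensing repressor of Hmox1 (122 and 95.2). In the cDC2-like cluster 19 reached the minimum and none was 2-fold different, beside 2.16% of all genes higher and 1.34% lower, at a median of 0.03. In cluster 8, 1 of 16, Aco1, was lower (63 and 1 UMIs), beside 6.99% of all genes there. Its ratio interval (0.005 to 1.06) included 1. In the cycling-like cluster 3 of 13 genes were lower, beside 3.7% of all genes there. The haemoglobin scavenger receptor gene Cd163 had 31.9 and 6.90 CPM (log2 -2.16), Nfe2l2, the NRF2 gene, 97.9 and 37.0 (log2 -1.40), and Hfe 59.5 and 22.6 (log2 -1.39). In that cluster the 10 macrophage markers summed to 2661 and 732 CPM, and its class II cells were 102 of 142 under chow and 61 of 154 under KD. Their part in these differences was not tested. Elsewhere Bach1 was at least 2-fold lower in clusters 0 and 6, where 1.76% and 1.21% of all genes were. Fech was higher in cluster 6, beside 1.35% of all genes, and Nfs1 in cluster 7, beside 3.46%, with a ratio interval (0.96 to 5.70) that included 1. Blvrb was higher in cluster 9 (log2 1.13), where 17.2% of all genes were and the median log2 ratio of all genes was 0.50. The genes named outside cluster 3 were chosen after their values were seen.

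Across the 13 clusters in both libraries, 26 points that share depth and clustering, likeness to each member was measured as the Pearson correlation of log2(CPM + 20) among 4515 genes with at least 1000 UMIs. Mt2 was most like Mt1 (0.88), followed by Upb1 and Icam1. Mt1 was most like Mcl1 (0.91), Rassf4 and Ctsh, with Mt2 outside its first 3. Hmox1 lay closest to Mmp19 (0.96), F13a1 and Pilra, and Trf to Plbd1 (0.93), H2-DMb1 and Fcgr2b. Ftl1 lay closest to Gabarap (0.95), Pirb and Bri3, and Fth1 to Ctsa (0.85), Camkk2 and Atp6v0d1. Tfrc, with 499 UMIs in all and most levels below the 20 CPM added, lay closest to Atxn7 (0.84), Plec and Stk10. The heavy and light ferritin chains were not among each other's 3 nearest genes.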

How the data were processed

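The matrices deposited by the authors contain unnormalised UMI counts for each cell, per the file headers, and their table assigns cells to 13 clusters at resolution 0.5. Cell Ranger, Seurat and the build mm10 are named in the submitters' processing notes. Versions, the rule for calling cells and the treatment of doublets are not given in the sources used here, and no doublet caller was run. The 142 cells without a cluster, all above 5% mitochondrial UMIs, were left out. Libraries held 21570910 (chow) and 26041785 (ketogenic) UMIs in 4545 and 5614 cells.

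Counts were summed per cluster and library (Python 3.11.15, numpy 2.4.6, scipy 1.17.1), and genes with at least 50 summed UMIs were compared. CPM have exact Poisson intervals, ratios exact conditional binomial ones and shares Clopper-Pearson ones. A count of 0 allows up to 3 counts. Thinned shares are exact expectations at 1000 UMIs per cell. Clusters were named from at least 3 marker genes 2-fold above all other cells, with thresholds set after seeing the data. Named genes are the 8 members, list genes 2-fold different in cluster 3, the 3 genes most like each member and the ferritin copies. Other genes named beside them were chosen after their values were seen, and 1 list gene is not reported here. The members, lists, markers and named-gene rule were chosen with earlier results of these data known. Calls were tested on simulated data. Alternatives covered the count added, scaling, totals, means over cells, free RNA, cell depth, the top cell, minimum counts and cluster splits.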

Additional observations from a re-analysis of the deposited data

Results flagged for a closer look

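The 142 cells without a deposited cluster, 87 from chow and 55 from the ketogenic diet, were used in no comparison, yet ferritin message was plain in them. Fth1 reached 2585 CPM (interval 2353 to 2835) in the ketogenic and 1759 (1589 to 1942) in the chow cells, from 454 and 391 UMIs. The clustered chow cells held 2651 CPM, so the unused ketogenic cells stood above the unused chow cells but not above the control library. Ftl1 was 1703 CPM in the unused ketogenic and 1921 in the unused chow cells. Mt1 had 2 and 81 UMIs and Lyz2 120 and 3005 CPM, so the cells of the libraries also differed in macrophage RNA. Its part in the Fth1 difference was not tested.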

How the results depend on the processing

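No paired analysis was possible because each diet has 1 library. The 15 pairs lower by at least 2-fold became 14 to 17 under most alternatives, 21 with a minimum of 20 UMIs and 11 with a minimum of 100. They were 4 in clusters 3, 5, 6, 8 and 12 alone, a count added after seeing the data that holds fewer pairs by construction. The count of pairs higher by at least 2-fold was 0, except that it was 1 with 10% of UMIs subtracted as free RNA and 1 without the cell with most UMIs of the gene, both times Trf in cluster 7 (log2 1.69 and 1.17). With free RNA subtracted, Mt1 in cluster 6 (log2 -0.81) and Mt2 in cluster 0 (-0.87) fell short of 2-fold and Trf in cluster 2 passed it (-2.16). Without the top cell Tfrc in cluster 7 was short of it (-0.90). Trf in cluster 9 passed it when scaled by the median of ratios (-1.15) or averaged over cells (-1.24), from -0.63. Split by immunoglobulin share, its Trf log2 ratio was -0.13 in the immunoglobulin-rich cells. It was -0.29 in the others, which were below the minimum with 5 chow and 25 ketogenic UMIs, 84% of the latter in 1 cell. Scaling by the median of ratios also took Fth1 in cluster 9 from 0.60 to 0.08 and Ftl1 there from 0.34 to -0.18, and a mean over cells took Trf in cluster 4 from -0.70 to 0.03. None of the 66 ratios past the minimum reversed while at least 2-fold under the alternatives run on them. Leaving out Slc40a1, with 7 UMIs in all, 3 members (Fth1, Ftl1 and Hmox1) had their highest CPM, summed over both libraries, in the macrophage-like cluster. That number was the same in each of the 5 alternatives that recomputed it. With 1 library per diet, mouse-to-mouse spread is unknown, and with 165 ketogenic Hmox1 UMIs and 499 Tfrc UMIs in all, these genes could show only large differences.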

Other observations

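Lists for factors that can act on metallothionein and Hmox1 genes were counted in the macrophage-like cluster as well, where 3.27% of all genes were at least 2-fold higher and 3.76% lower. Of 8 zinc-handling genes that reached the minimum, Mtf1, the zinc-sensing activator of metallothionein genes, was higher under the ketogenic diet (9.45 and 24.6 CPM from 48 and 22 UMIs, log2 1.40). The zinc importers Slc39a6 (log2 -1.13, 68 and 5 UMIs) and Slc39a10 (log2 -1.17, 57 and 4 UMIs) were lower, and both ratio intervals included 1. Of 11 targets of the oxidative stress factor NRF2, Gsr, glutathione reductase, was the 1 gene at least 2-fold higher (111 and 260 CPM, log2 1.23), beside the same 3.27%, and the list's median was 0.33 against 0.04 for all genes tested. Of 6 glucocorticoid-induced genes none was 2-fold different, and their median was -0.21. Tsc22d3, a common readout of glucocorticoid signalling, had 117 and 106 CPM, and the clock gene Per1 62.8 and 32.5 (log2 -0.93, ratio interval 0.34 to 0.76).

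Of 15 genes of dissociation and stress, 1 was lower in the macrophage-like cluster, Egr1 (453 and 86.2 CPM, log2 -2.38), beside 3.76% of all genes, and 1 higher, Hspa1a (68.3 and 187 CPM, log2 1.45), beside 3.27%. Both also differed in other clusters. Hspa1a, a heat shock chaperone, was at least 2-fold higher under the ketogenic diet in 9 of the 11 clusters where it reached the minimum, beside 3.32% of all gene and cluster pairs and 12 of the list's 180, with log2 ratios from 0.38 to 2.50 over the 11 and the highest in NK-like cells (9.45 and 55.1 CPM). Its near-identical copy Hspa1b was higher in 1 of 6 clusters, with ratios from -0.63 in the macrophage-like cluster to 1.38, and how the counting divided reads between the copies was not tested. Egr1 was at least 2-fold lower in 7 of 11, beside 2.32% of all pairs and 18 of the list's 180, with ratios from -2.38 to -0.63. Whether handling of the tissue has a part in these was not tested.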
